A study of Mus musculus with 6 samples.

Results

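The 9 members described here are the Lin28, Hmga and Igf2bp growth regulators and their partners around the let-7 microRNAs. They were taken by symbol (Lin28a, Lin28b, Trim71, Dis3l2, Hmga1, Hmga2, Igf2bp1, Igf2bp2 and Igf2bp3) from the 55450 annotated genes of the deposited files, and all 9 were found and passed the filter on low counts. The libraries hold polyadenylated RNA of mouse embryonic stem cells, which are derived from blastocysts and are pluripotent. By label, 3 libraries came from Hoxd12-/- cells (knockout, KO) and 3 from Wild Type cells (WT). Both genotypes are of strain C57BL6, are given as E3.5 embryo and were grown in mES+2i medium, in which 2i names a pair of kinase inhibitors that keep such cells naive. No label names a clone or states that replicates were separate cultures, so p-values are set against a spread between libraries that could be purely technical.

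LIN28 proteins bind the precursors of let-7 and block their maturation. Precursors bound by LIN28 are tailed with uridines and are then degraded by the exonuclease DIS3L2. Mature let-7 in turn represses transcripts with matching sites, and Lin28a, Lin28b, Trim71, Hmga2 and the Igf2bp genes are known targets, so that the loop stands open in embryonic cells and closes as tissues mature. LIN28A also helps to reprogram somatic cells, and the series title names reprogramming and the proliferation of embryonic stem cells as the processes that Hoxd12, a homeobox gene, was studied for.

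The let-7 sequences are shown because they define the sites by which the members are linked. Of 11 mature names of the family in RefSeq (GRCm38.p6), 10 share the seed GAGGUAG, bases 2 to 8, in capitals here, and let-7j differs in it.
let-7a-5p: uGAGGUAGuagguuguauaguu
let-7d-5p: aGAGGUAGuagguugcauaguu
let-7g-5p: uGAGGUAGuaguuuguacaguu
miR-98-5p: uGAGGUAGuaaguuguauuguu
let-7j: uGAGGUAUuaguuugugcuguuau
The hairpin of let-7g (chr9:106178840-106178927, plus strand, GRCm38.p6) is shown for the letters GGAG, in capitals, which LIN28 is known to bind in the loop.
Mirlet7g: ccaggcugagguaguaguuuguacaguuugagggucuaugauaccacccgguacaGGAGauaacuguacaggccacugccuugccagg
These letters occur somewhere in 9 of 12 hairpins of the family, taken without let-7j and let-7k, and in 44.5% of all 1005 mouse hairpins. The search was on the strand of the hairpin. The 12 let-7 genes taken from the deposited files, also without let-7j and let-7k, held 0 counts over all 6 libraries. These libraries were not made to capture short RNAs, and the level of let-7 itself was not measured.

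The letters CTACCTC, complementary to bases 2 to 8 of let-7, were searched on the transcript strand in the longest annotated 3′ UTR of each gene (GENCODE M21, GRCm38). At least 1 match was present in 8 of the 9 members, against 9.02% of 21037 genes with a 3′ UTR, and the members were chosen as genes of the let-7 axis. Trim71, Lin28b, Hmga2 and Igf2bp1 each held 4 matches, a number of 3 or more being found in 0.152% of genes. Lin28a held 2, Igf2bp2, Igf2bp3 and Hmga1 held 1 each, and Dis3l2, whose UTR of 350 bases is the shortest, held 0. The match nearest to the stop codon is shown for each member that has one, with the match in capitals.
Lin28a (chr4:134005187-134005216, minus strand): ggagtgcacagcctgttgaaCTACCTCatt
Lin28b (chr10:45381020-45381049, minus strand): ccttcacccgggcgggaagtCTACCTCatg
Trim71 (chr9:114512470-114512499, minus strand): agtacaacattgcctaagtcCTACCTCagc
Hmga1 (chr17:27563272-27563301, plus strand): tcttctcctctgttcacaaaCTACCTCtgg
Hmga2 (chr10:120364222-120364251, minus strand): ggggcgccgacattcaatttCTACCTCagc
Igf2bp1 (chr11:95961776-95961805, minus strand): gcagtgctgtgcgaagtaaaCTACCTCaag
Igf2bp2 (chr16:22059471-22059500, minus strand): gaaaaacacacaaataaaagCTACCTCagg
Igf2bp3 (chr6:49086785-49086814, minus strand): aaacgtgcatttttactcaaCTACCTCagg
In 7 of these 8 sequences the match is followed by an A, and in Hmga1 by a T. The matches further from the stop codon, not shown, differ in this. Of all matches, an A followed 4 of 4 in Trim71, 3 of 4 in Igf2bp1 and 2 of 2 in Lin28a. In Lin28b and in Hmga2 it followed 1 of 4. A match is a description of letters and does not show that let-7 acts there in these cells.

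Library totals lay between 5412577 and 6280934 expected counts, so that 3 counts equal 0.478 to 0.554 CPM (counts scaled to a common library total), a limit for counting error only. Hoxd12, the targeted gene, had 0 counts in all 6 libraries and gave no check of the genotypes. KO replicate 2 stood apart from the other libraries, with 1.63% of its counts at a ribosomal RNA locus of chromosome 17 that held 0.102% to 0.139% of the others. All 10 pluripotency markers were tested and summed to 8793 to 9292 CPM in KO and 8647 to 9270.4 CPM in WT. Most of these sums came from Dppa5a (means of 5273 CPM in KO and 5162 in WT) and Pou5f1 (1786 and 1842), so they say little of the others. Zfp42 was higher (0.29) and Nanog lower (-0.39, adjusted p = 0.00167, lost without KO replicate 2 or KO replicate 3). Zfp42 lies on chromosome 8, whose tested genes had a median log2 fold change of 0.17. Over all 12891 genes tested, 1559 were higher and 1861 lower in KO (edgeR quasi-likelihood test, adjusted p below 0.05), so that 45.6% of calls were higher. That share was 33.2% with DESeq2 and 59.6% with limma on log2(TPM + 1), where TPM is a level scaled by transcript length and library.

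Of the 9 members 3 fell in KO (Igf2bp2, Hmga2 and Igf2bp1), where 14.4% of all tested genes were lower. The number that rose was 0, where 12.1% of all genes were higher. At an unadjusted p below 0.05 there were 5 members, the 3 that fell and Igf2bp3 and Dis3l2, which had higher means in KO, where 36.8% of all genes had such a p. DESeq2 called 1 member, Igf2bp2, against 9.81% of all genes, and limma on log2(TPM + 1) called 0, against 14.4%. The median log2 fold change of the members was 0.05, beside 0.02 for all genes. The CPM of the groups did not overlap for 4 members, Igf2bp1, Igf2bp2, Igf2bp3 and Hmga2, as was the case in 39.7% of all genes. On TPM they did not overlap for 3, Igf2bp1, Igf2bp2 and Dis3l2, beside 37.4% of all genes.

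**Figure D1:**
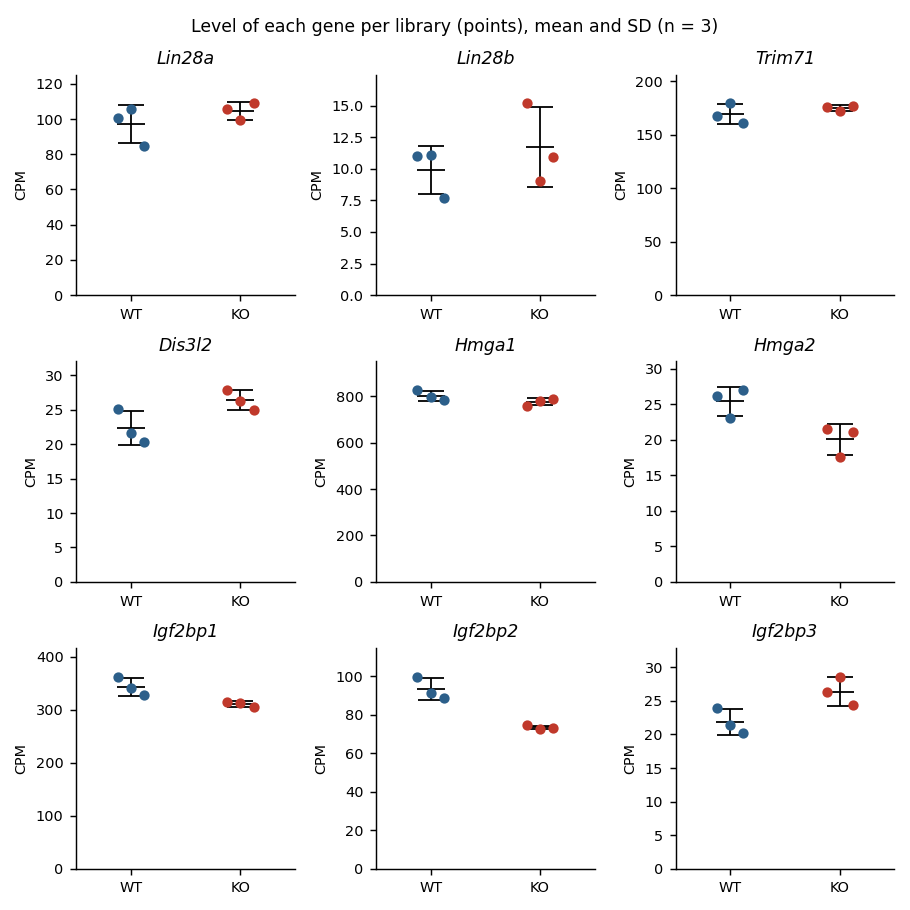
Level of each member in CPM (linear axis from 0) in the 3 WT and 3 KO libraries, with points for libraries and black marks for the mean and SD. Igf2bp2 lies between 72.8 and 74.6 CPM in KO and between 88.7 and 99.7 CPM in WT, while Lin28a, Trim71 and Hmga1 overlap between the genotypes.

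Levels per transcript length gave the order of the members. Hmga1, which encodes an AT-hook protein of chromatin, was highest, at 451 to 538 TPM over the 6 libraries. Igf2bp1 followed at 42.0 to 51.7 TPM, then Lin28a at 21.4 to 32.0 TPM and Igf2bp2 at 19.6 to 26.9 TPM, whose ranges overlapped. Trim71 lay at 14.8 to 19 TPM and overlapped with neither neighbour in the order. Igf2bp3 (6.82 to 9.25 TPM), Dis3l2 (5.93 to 9.07 TPM) and Hmga2 (4.34 to 6.47 TPM) were low, and their ranges overlapped from each to the next in that order. Lin28b was lowest at 1.35 to 2.90 TPM, below the range of Hmga2.

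LIN28A and LIN28B are RNA-binding proteins with a cold shock domain and zinc knuckles, and Lin28a was the main form here. It supplied 92.9% ± 1.53 of the summed Lin28 TPM in KO and 93.6% ± 0.414 in WT (SD, n = 3). The difference was smaller than the SD of the KO libraries but larger than that of the WT libraries. Lin28a (ENSMUSG00000050966, chromosome 4, 134003330 to 134018841) stood at 106, 99.3 and 109 CPM in KO and at 100.4, 106 and 84.9 CPM in WT. The groups overlapped, WT replicate 3 being the low library. The log2 fold change was 0.11 with a 95% interval of -0.03 to 0.25 (adjusted p = 0.243). The value was 0.02 without WT replicate 3 and 0.18 without WT replicate 2, and neither was called.

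Lin28b (ENSMUSG00000063804, chromosome 10, 45376620 to 45486395) was the member with the fewest counts, 95, 48 and 71 in KO and 63, 68 and 45 in WT. Its CPM were 15.2, 9.08 and 10.9 in KO and 11.0, 11.1 and 7.73 in WT. A single KO library, replicate 1, lay above all WT libraries, and the coefficient of variation reached 26.8% in KO. The interval of the log2 fold change, -0.13 to 0.63 around 0.25 (adjusted p = 0.350), allows a slight fall as well as a rise larger than the estimate of any member. The value was 0.02 without KO replicate 1, 0.10 without WT replicate 3 and 0.39 without KO replicate 2, none of them called.

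Trim71 (ENSMUSG00000079259, chromosome 9, 114507133 to 114564369) encodes a ubiquitin ligase that also binds RNA and is expressed in early embryonic cells. It held 176, 172 and 177 CPM in KO and 168, 179 and 161 CPM in WT. The KO libraries fell within the WT range, and the interval was narrow, at -0.05 to 0.15 around 0.05 (adjusted p = 0.519). It was 0.01 without WT replicate 3 and 0.09 without WT replicate 2, and neither was called. Its annotation has a single transcript of 9332 bases, so its count does not depend on how reads are shared between transcripts.

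Dis3l2 (ENSMUSG00000053333, chromosome 1, 86703808 to 87050095), the exonuclease that degrades uridylated let-7 precursors, stood at 27.9, 26.3 and 24.9 CPM in KO and 25.1, 21.7 and 20.3 CPM in WT. The groups overlapped by 1 pair of libraries, KO replicate 3 lying just below WT replicate 1. The log2 fold change of 0.24 (95% interval 0.01 to 0.47) did not pass the test over all genes (adjusted p = 0.1201). On the TPM scale the groups did not overlap, at 9.07, 7.97 and 8.46 TPM in KO and 7.91, 6.40 and 5.93 TPM in WT, and limma did not call the gene there either.

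The HMGA proteins bind and bend AT-rich DNA, and the TPM of Hmga1 were far above those of Hmga2 in every library. Hmga1 (ENSMUSG00000046711, chromosome 17, 27556497 to 27563674) held 759.5, 777 and 789.9 CPM in KO and 826, 797 and 784 CPM in WT. The groups overlapped by 1 pair of libraries, and the log2 fold change was -0.05 (95% interval -0.14 to 0.04, adjusted p = 0.454). Its value is uncertain because the near-identical gene Hmga1b on chromosome 11, also annotated as coding, took 28.7% to 31.0% of the summed CPM of the pair and reads can be split between them. Hmga1b itself had a log2 fold change of 0.00 (adjusted p = 1.00), and the sum of the pair gave -0.03 (adjusted p = 0.615). On the TPM scales the sign of Hmga1 turned to 0.08, but there the median of all genes was 0.10 on log2(TPM + 1) and 0.11 on log2(TPM + 0.1), and relative to it Hmga1 lay at -0.01 and -0.03.

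Hmga2 (ENSMUSG00000056758, chromosome 10, 120361275 to 120476469), the best-known let-7 target of the group, fell in KO. It had 134, 93 and 137 counts in KO and 150, 142 and 157 in WT. These equal 21.4, 17.6 and 21.1 CPM in KO and 26.2, 23.1 and 27.0 CPM in WT, a mean of 20.04 ± 2.14 against 25.4 ± 2.04 CPM (SD, n = 3). All KO libraries lay below all WT libraries, and KO replicate 2 was the lowest. The log2 fold change was -0.34 (SE 0.12, 95% interval -0.57 to -0.10, adjusted p = 0.0306). The call was lost without KO replicate 2 (-0.26, adjusted p = 0.133), without WT replicate 1 (-0.32, adjusted p = 0.0903) or without WT replicate 3 (-0.29, adjusted p = 0.126), and with DESeq2 (adjusted p = 0.292). Over its alternatives the adjusted p ran from 0.0253 to 0.382. On TPM the groups overlapped, KO replicates 1 and 3 at 5.71 and 5.84 TPM lying above WT replicate 2 at 5.55 TPM.

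The IGF2BP proteins bind messenger RNAs, among them that of Igf2, and act on their stability, transport and translation. Summed over the 3 genes, KO libraries held 414, 414 and 402 CPM and WT libraries 485, 453 and 437 CPM, without overlap. An exact permutation test over libraries gave p = 0.10, two-sided, the smallest that 3 against 3 allows. Groups of this size without overlap always give that value, so it adds nothing to the lack of overlap. Igf2bp1 and Igf2bp2 fell, and Igf2bp3 did not pass the test. The difference between their changes was not tested.

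Igf2bp2 (ENSMUSG00000033581, chromosome 16, 22059009 to 22163299) had the smallest p of the members. It stood at 74.6, 72.8 and 73.3 CPM in KO and at 99.7, 91.5 and 88.7 CPM in WT. The KO libraries lay close together, with an SD of 0.931 CPM against 5.73 in WT, and all were below WT. The log2 fold change was -0.34 (SE 0.06, 95% interval -0.47 to -0.21, adjusted p = 8.31e-05). The call was kept without each library in turn (adjusted p up to 0.00214) and with DESeq2 (adjusted p = 0.00646). It was lost with limma on log2(TPM + 1) (-0.20, adjusted p = 0.197), where TPM of 22.3, 19.6 and 22.4 in KO lay below 26.9, 23.9 and 23.4 in WT. Relative to the median of all genes on that scale (0.10), Igf2bp2 lay at -0.29. Among 10421 other genes at a mean of at least 5 CPM, Rars, Aatf and Myl12a had profiles most like it over the 6 libraries, with Pearson r of 0.998, 0.997 and 0.997. Each of them was also lower in KO, and a shared difference between the genotypes by itself raises r.

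Igf2bp1 (ENSMUSG00000013415, chromosome 11, 95957163 to 96005940), the most abundant of the 3, held 313, 313 and 305 CPM in KO and 361, 339.9 and 328 CPM in WT. All KO libraries were below WT, and the fall was small, with a log2 fold change of -0.14 (SE 0.05, 95% interval -0.24 to -0.05, adjusted p = 0.0160). It was lost without KO replicate 3 (adjusted p = 0.0545) or WT replicate 1 (-0.11, adjusted p = 0.110) and with DESeq2 (adjusted p = 0.0811). The alternatives spanned adjusted p from 0.00348 to 0.171. Tested genes in the 10 Mb window around it lay close to its value, as the median of 129 neighbours was -0.15, 46 being lower and 5 higher. The median of all 1050 tested genes of chromosome 11 was -0.12.

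Igf2bp3 (ENSMUSG00000029814, chromosome 6, 49085223 to 49214957) stood at 26.3, 28.6 and 24.3 CPM in KO and at 23.9, 21.3 and 20.3 CPM in WT. All KO libraries lay above WT, by a small gap between KO replicate 3 and WT replicate 1. The log2 fold change of 0.27 (95% interval 0.04 to 0.50) did not pass the test over all genes (adjusted p = 0.0771). Its 42 tested neighbours had a median of 0.26, with 17 higher and 1 lower, and the 600 tested genes of chromosome 6 a median of 0.16. The part of the neighbourhood in the values of Igf2bp1 and Igf2bp3 was not tested.

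**Figure D2:**
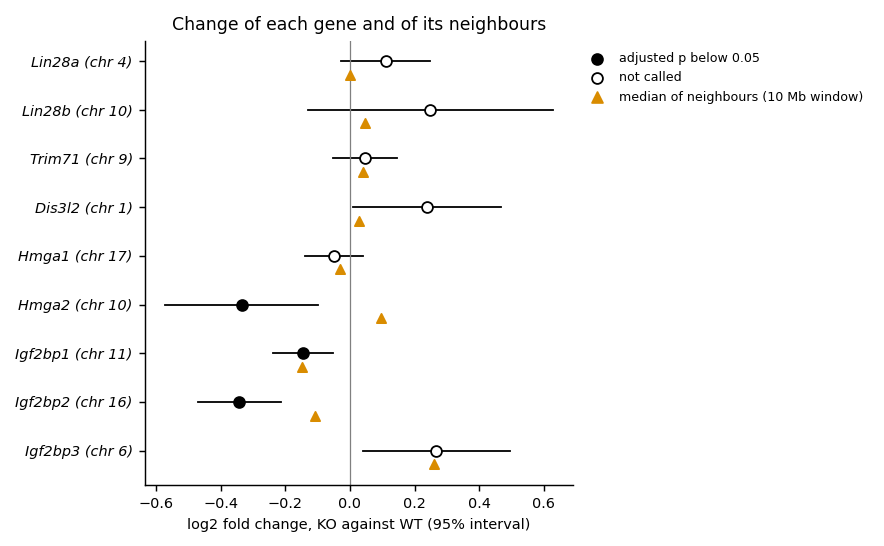
Log2 fold change of each member in KO against WT with its 95% interval, and, as triangles, the median of the tested genes in the 10 Mb window around it. Igf2bp1 (-0.14) and Igf2bp3 (0.27) lie on the medians of their neighbours (-0.15 and 0.26), whereas Igf2bp2 (-0.34) and Hmga2 (-0.34) lie below theirs (-0.11 and 0.10).

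The windows of the other members were closer to 0. The 31 neighbours of Hmga2 had a median of 0.10, opposite in sign to Hmga2. The 81 neighbours of Igf2bp2 had a median of -0.11, with 23 lower and 8 higher, against -0.34 for the gene. For Lin28a, Lin28b, Trim71, Dis3l2 and Hmga1 the medians ran from -0.03 to 0.05.

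The deposited files also give, for each gene and library, a mean transcript length, in which each transcript counts by its estimated share. For Igf2bp3 it was 3117, 3168 and 2931 bases in KO and 2414, 2350.0 and 2660.1 bases in WT. All KO libraries had the longer mean, by 597 bases on average. The annotation holds 5 transcripts of this gene, of 512 to 4345 bases, so a longer mean goes with a larger estimated share of the long ones. Only 4.79% of the 10042 tested genes with a varying length had a larger ratio between genotypes. With this length as an offset the log2 fold change of Igf2bp3 turned from 0.27 to -0.03 (adjusted p = 0.890), and its TPM overlapped between groups, at 8.39, 8.28 and 8.60 in KO and 9.25, 8.27 and 6.82 in WT.

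Igf2bp1 showed a longer mean in KO as well, 6558, 6403 and 7318 bases against 6299.7, 6259 and 5802 bases in WT. The gene has 1 annotated coding transcript, of 8378 bases with all 4 let-7 matches in its 3′ UTR of 6337 bases, and 4 short ones of 576 to 1108 bases. With the length as an offset its log2 fold change was -0.27 in place of -0.14 (adjusted p = 0.00348). That offset called 2 members lower, Igf2bp1 and Igf2bp2, and 19.9% of all genes in either direction. For Igf2bp1, Igf2bp3 and Dis3l2 the means did not overlap and were longer in KO, and for Hmga1 they were shorter, by 11.7 bases. Of genes with a varying length, 18.1% had a larger ratio than Igf2bp1, 63.3% than Dis3l2 and 75.6% than Hmga1. The gap of Dis3l2 was small, from 3044 bases in KO replicate 2 to 3040 in WT replicate 2, with WT replicate 1 lowest at 2942. Of all genes with a varying length 10.7% were longer and 5.27% shorter without overlap. An exact permutation test gave p = 0.10 for each of these 4 genes, the smallest possible, and Lin28b and Igf2bp2 overlapped (p = 0.50 and 0.60). The length is an estimate from how reads were shared between transcripts, and strand use in counting is not given in the sources used here.

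**Figure D3:**
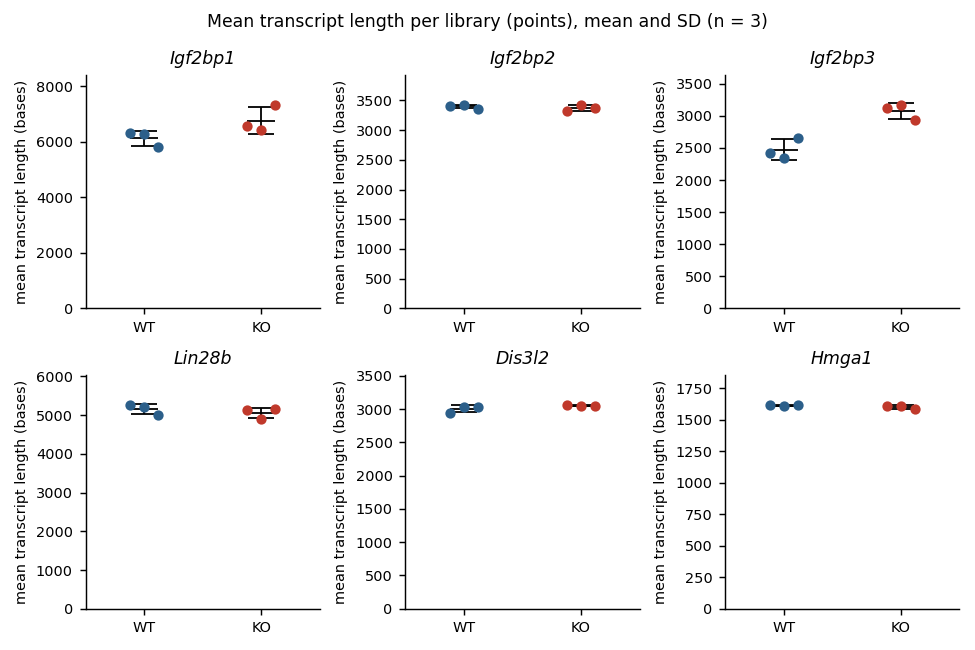
Mean transcript length in bases (linear axis from 0) per library for the 6 members in which it varied, with the mean and SD of each genotype. Igf2bp3 lies between 2931 and 3168 bases in KO and between 2350.0 and 2660.1 bases in WT, and the other changes are smaller relative to the level.

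**Figure D4:**
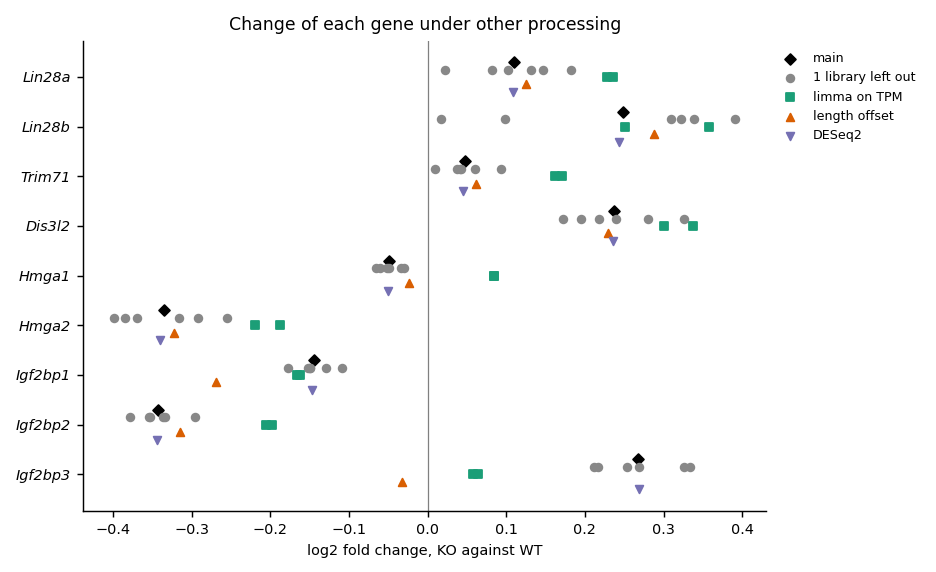
Log2 fold change of each member under the edgeR fit of all libraries (diamonds), with 1 library left out (grey), on TPM with limma (squares), with the length offset (upward triangles) and with DESeq2 (downward triangles). Igf2bp2, Igf2bp1 and Hmga2 stay below 0 in all settings plotted, while Igf2bp3 reaches -0.03 with the length offset and Hmga1 reaches 0.08 on TPM.

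Markers of other cell types were low. Of 8 fibroblast markers, which feeder cells would carry, Col3a1, Dcn, Lum and Postn had 0 counts in every library, and Col1a1 held 0.756 to 2.27 CPM. The summed level of that list was lower in KO, at 7.18 to 11.1 CPM against 12.1 to 16.9 CPM in WT, mostly from Thy1 and Pdgfrb, and Thy1 fell (log2 fold change -0.97, adjusted p = 0.00859, lost without KO replicate 1 and not called by DESeq2). Formative markers, of a later pluripotent state, summed to 48.5 to 49.7 CPM in KO and 56.7 to 61.0 CPM in WT, with 1 higher (Otx2, 0.87) and 2 lower (Dnmt3b, -0.69, and Lef1, -0.92) of 6 tested. DESeq2 called only Dnmt3b of these. The part of these markers in the falls of Hmga2 and Igf2bp2 was not tested. Of 6 primitive endoderm markers 1 was tested, Gata4, which was higher (1.10, adjusted p = 0.0247, lost without KO replicate 1, WT replicate 1 or WT replicate 2 and not called by DESeq2), and the sums overlapped, at 5.86 to 11.0 CPM in KO and 3.42 to 6.46 CPM in WT. In such bulk libraries fewer cells of a type and less RNA per cell cannot be told apart.

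The counts of each list, above and below, stand beside 12.1% of all tested genes higher and 14.4% lower with edgeR. In either direction DESeq2 called 9.81% of all genes and limma on log2(TPM + 1) 14.4%. Genes that process microRNAs or act with them were looked at next. Of 21 listed genes 20 were tested, 5 rose and 1 fell, with a median of 0.05 (3 rises and 0 falls with DESeq2 and with limma on TPM). Ddx17 (0.27, adjusted p = 3.56e-05) and Ddx5 (0.22, adjusted p = 0.000332) encode RNA helicases that work with the nuclear processor of microRNA precursors. Tut4 (0.57, adjusted p = 0.00256), which encodes the uridylase that LIN28A recruits to let-7 precursors, rose from 11.2 ± 1.13 to 16.7 ± 0.243 CPM. Tut4 was not called by DESeq2 (adjusted p = 0.0933), by limma on log2(TPM + 1) (adjusted p = 0.0514) or with the length offset (adjusted p = 0.05002). Its relative Tut7, named after its value was seen, had 0.37 (adjusted p = 0.0222), lost without KO replicate 1, KO replicate 3, WT replicate 1 or WT replicate 3. Tut7 was not called by DESeq2 (adjusted p = 0.275), by limma on log2(TPM + 1) (adjusted p = 0.0894) or with the length offset (adjusted p = 0.0826). Tarbp2, the 1 gene that fell, lost its call without KO replicate 1 and with each of these alternatives. Hnrnpa1, which rose, lost its call without KO replicate 1 or any 1 WT library. DESeq2 (adjusted p = 0.0145), limma on log2(TPM + 1) (adjusted p = 0.0150) and the length offset (adjusted p = 0.0250) called Hnrnpa1.

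Listed let-7 targets went both ways. Of 26 genes 24 were tested, 5 rose and 5 fell, and the median was 0.04 (2 rises and 2 falls with DESeq2, 5 and 2 with limma on TPM). Hras, which encodes a small GTPase of growth signalling, fell (-0.43, adjusted p = 2.21e-06). Ccnd1, which encodes cyclin D1, also fell (-0.64, adjusted p = 3.42e-06). Both calls held without each library in turn, whereas those of Cdk6, Hic2, Nr6a1 and Sall4, chosen here for that, did not.

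The number of seed matches in the 3′ UTR went with little change over all genes. The 10491 tested genes without a match had a median log2 fold change of 0.02, the 1103 genes with 1 match 0.04, the 136 with 2 matches 0.06 and the 25 with 3 or more 0.10. These groups also differ in UTR length, with medians of 1027, 2146, 3606 and 4457 bases, and the part of length was not tested. Among the 4 members with 4 matches the values were 0.25 for Lin28b, 0.05 for Trim71, -0.34 for Hmga2 and -0.14 for Igf2bp1.

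Of 12 RNAs known to be bound by IGF2BP or LIN28 proteins 11 were tested, 2 rose and 3 fell (2 and 2 with DESeq2 and with limma on TPM). The imprinted RNA H19 fell from 112 ± 1.68 to 9.26 ± 0.816 CPM (SD, n = 3; log2 fold change -3.59, edgeR adjusted p = 5.45e-25). Actb, which encodes beta-actin, fell as well (-0.29, adjusted p = 2.14e-06), while Mapk4 rose (1.57, adjusted p = 7.37e-05). Igf2, the growth factor gene after which the Igf2bp genes are named, was chosen after its value was seen and rose from 5.12 ± 1.07 to 10.2 ± 0.962 CPM (SD, n = 3; 0.97, adjusted p = 0.000449). Of 6 transcripts known to be repressed by TRIM71, 4 were tested and edgeR called 0, with 0 at an unadjusted p below 0.05 and 0 with DESeq2 and limma on TPM. The smallest p among them was that of Cdkn1a (-0.08, adjusted p = 0.207), which encodes the CDK inhibitor p21.

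Relatives of the members by protein family were compared in the same fit. Of 10 tested genes of other HMG proteins 3 rose and 4 fell, with Hmgb2 at 0.37 (adjusted p = 1.64e-07) and Hmgn1 at -0.18 (adjusted p = 0.00225) and Hmgn2 at -0.19 (adjusted p = 0.00262). DESeq2 called 2 rises and 3 falls there and limma on TPM 2 and 1. The calls of Hmgb1 and Hmgn5, chosen here for that, were lost without at least 1 of the libraries. Hmgn1 was called neither on TPM nor with the length offset (adjusted p = 0.115). Hmgb2 lies on chromosome 8, whose tested genes had a median log2 fold change of 0.17, and the part of the chromosome in its value was not tested. Of 11 genes of the RNA exosome and of the relatives of Dis3l2, 2 fell, Exosc4 (-0.45, adjusted p = 4.19e-05) and Exosc2 (-0.26, adjusted p = 0.000263), and 0 rose. DESeq2 also called 2 falls and 0 rises, and limma on TPM called 1 rise and 1 fall, Exosc2 not being called there (adjusted p = 0.207). Of the 3 relatives of Trim71 with an NHL domain, edgeR and DESeq2 called 0 and limma on TPM 1, Trim3 (0.30, adjusted p = 0.0777 with edgeR), and 2 had an unadjusted p below 0.05, beside 36.8% of all genes.

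**Figure D5:**
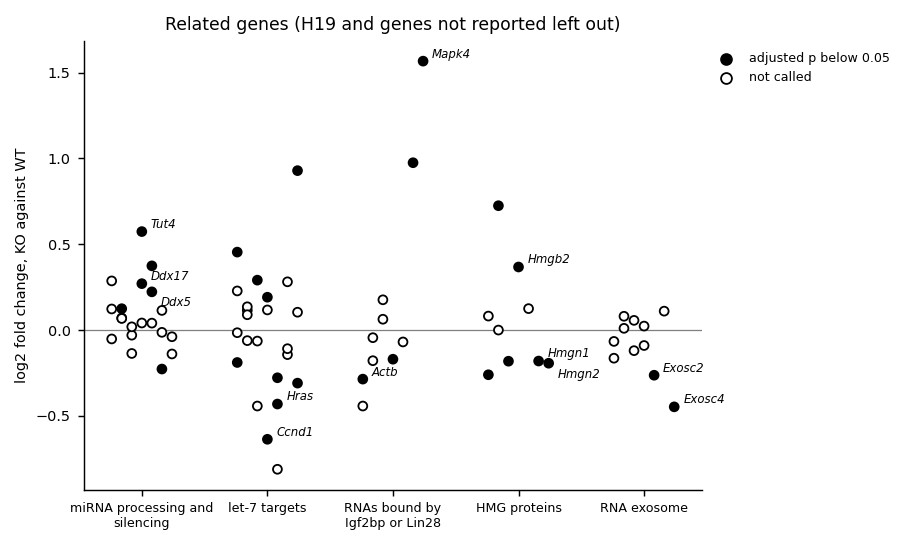
Log2 fold change in KO against WT of tested genes of 5 lists, filled where the adjusted p was below 0.05, with the named genes labelled, and with H19 (-3.59) and genes not reported here left out. The let-7 targets lie on both sides of 0, with Ccnd1 at -0.64.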

How the data were processed

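RNA was sequenced from 3 KO and 3 WT libraries made with a stranded mRNA kit, per the labels. The deposited files hold, per the file headers, expected counts (estimated counts, not normalized), TPM and transcript lengths for each gene. Bowtie 0.12.2, mm8 and mm10 are listed in the submitters' processing notes with no role stated, and the quantifier is not given in the sources used here. Each of the 55450 identifiers, with its transcripts, matched GENCODE M21 (GRCm38), the source of symbols and coordinates.

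Expected counts were rounded. In R 4.3.3, edgeR 4.0.16 was run on all genes with TMM scaling, filterByExpr and the quasi-likelihood test on genotype, with Benjamini-Hochberg adjustment over 12891 genes and calls below 0.05. CPM are scaled by TMM. Tests on counts were checked on simulated data. Alternatives were RLE scaling, DESeq2 1.42.0, no filter, 1 CPM in 3 libraries, a replicate block, a length offset, limma 3.58.1 on TPM (log2, pseudocount 1 or 0.1), summing copies and leaving out each library. Removal of the ribosomal RNA locus was chosen after seeing the data. The members and lists were chosen with earlier results of these data known. The genes named are the members, Hoxd12, copies of members, of each list the up to 3 called genes of smallest adjusted p at a mean of at least 1 CPM (or, where none was called, the smallest p), and the 3 genes most like the member of smallest p. Others are said to be chosen after their values were seen. A gene that this rule names is not reported here. Replicates of a genotype differed beyond counting noise, with a chi-square per degree of freedom of 1.98 to 13.4, so none was merged.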

Additional observations from a re-analysis of the deposited data

How the results depend on the processing

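DESeq2 called 503 genes higher and 1012 lower, and limma called 749 lower on log2(TPM + 1) and 738 on log2(TPM + 0.1). The number of members that fell was 1 with DESeq2, 0 on both TPM scales and 1 to 3 with a library left out. Hmga2 lost its call with DESeq2 (-0.34), the length offset (-0.32), log2(TPM + 1) (-0.19) and log2(TPM + 0.1) (-0.22), and ran from -0.40 to -0.26 with a library left out. Igf2bp1 lost it with DESeq2 (-0.15), log2(TPM + 1) (-0.16) and log2(TPM + 0.1) (-0.17), and ran from -0.18 to -0.11. Igf2bp2 lost it on log2(TPM + 1) (-0.20) and log2(TPM + 0.1) (-0.21). The median of all genes was 0.10 and 0.11 on these TPM scales, beside 0.02 in the edgeR fit of all libraries. Relative to it Hmga2 lay at -0.28 and -0.33, Igf2bp1 at -0.26 and -0.28 and Igf2bp2 at -0.29 and -0.32. Relative to its own median, the edgeR fit gave -0.35, -0.16 and -0.36 for Hmga2, Igf2bp1 and Igf2bp2. The sign turned for Igf2bp3 with the length offset (log2 fold change -0.032) and for Hmga1 on log2(TPM + 1) (0.0839) and log2(TPM + 0.1) (0.0841). Relative to the median of all genes on these TPM scales, Hmga1 lay at -0.01 and -0.03. The causes of these turns were not tested. RLE scaling, both other filters, the replicate block and removal of the ribosomal RNA locus left the direction and call of each member as they were. Deviations of same-numbered libraries had correlations of 0.004 to 0.04, beside -0.06 to 0.04 for libraries of unlike number. Pairing by number was thus not seen, but such values cannot exclude that same-numbered libraries were handled together. The replicate block called 1513 genes higher and 1840 lower. Depth limits Lin28b most, at 45 to 95 counts per library.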
